A study of Homo sapiens with 12 samples.

Results

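Peaks with identical coordinates are stretches of the genome that were called with the same chromosome, start, end and strand in both deposited peak lists of an N4-acetylcytidine (ac4C) experiment. The rule gave 5609 such peaks, which make up 16.3% (95% Wilson interval 15.9 to 16.7) of the 34365 peaks of the control list and 20.0% (19.5 to 20.5) of the 28047 peaks of the knockdown list. Members were selected on their called coordinates in both lists, so the coincidence of their ends is a description and supports nothing. The scores that each list gives to these peaks took no part in the rule.

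The cells were RBE, an established human line of intrahepatic cholangiocarcinoma, a cancer of the bile ducts within the liver. One arm carried a control hairpin (sh-NC) and the other a lentiviral short hairpin against NAT10, and the stable knockdown lines were grown under puromycin. Fragments of RNA were pulled down with an antibody against ac4C, and pulled-down and input RNA were sequenced separately, with 3 immunoprecipitates and 3 inputs in each arm and 12 libraries in all. Only 1 list per arm was used here, so no value below measures the spread between replicates, no p-value is given, and how deeply the libraries were sequenced is unknown. The labels tie the control list to its arm, and the other list was taken as the knockdown by elimination. The labels name polyA RNA as the molecule and a library kit for whole RNA.

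Acetylation of cytidine at the N4 position is found in ribosomal RNA, transfer RNA and, by reports from antibody and chemical methods, messenger RNA. NAT10 is the RNA acetyltransferase that makes this mark, and small nucleolar RNAs such as SNORD13 guide it to its sites in 18S ribosomal RNA. Antibody enrichment reports a region of RNA rather than a base, so a peak is broader than the modified cytidine.

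The sequences below show how exactly some of the shared ends sit on annotated RNA boundaries. Of the identical peaks up to 1000 bp, 22 overlapped a microRNA hairpin gene of RefSeq (GRCh38.p14), 20 of them on the hairpin's strand. The 7 of these that were 25 bp wide all began at the hairpin's left genomic end, which is the 5′ end on the plus strand and the 3′ end on the minus strand. Among the other peaks, 4 of 4 in the control list and 4 of 5 in the knockdown list did so. Hairpins are written 5′ to 3′ as RNA, and capitals mark the bases that lie under the peak.
MIR6807: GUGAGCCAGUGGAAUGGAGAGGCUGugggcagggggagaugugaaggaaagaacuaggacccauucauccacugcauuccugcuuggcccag
MIR6892: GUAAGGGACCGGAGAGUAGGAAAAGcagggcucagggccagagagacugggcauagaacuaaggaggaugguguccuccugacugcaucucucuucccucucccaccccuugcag
MIR1244-2: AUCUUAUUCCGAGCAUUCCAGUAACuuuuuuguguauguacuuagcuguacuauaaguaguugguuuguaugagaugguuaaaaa
MIR6747: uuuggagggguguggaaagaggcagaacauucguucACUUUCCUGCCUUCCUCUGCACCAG
MIR6804: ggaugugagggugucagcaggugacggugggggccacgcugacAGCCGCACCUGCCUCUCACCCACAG
MIR6728: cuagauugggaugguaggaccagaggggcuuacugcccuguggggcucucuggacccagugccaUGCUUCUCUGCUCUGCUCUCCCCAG
MIR6854: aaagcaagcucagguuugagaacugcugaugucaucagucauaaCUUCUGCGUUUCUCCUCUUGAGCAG
MIR1184-1: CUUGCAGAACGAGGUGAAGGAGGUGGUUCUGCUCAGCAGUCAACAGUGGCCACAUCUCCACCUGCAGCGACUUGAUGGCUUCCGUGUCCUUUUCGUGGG

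Of the 25 bp peaks, those on minus-strand hairpins (MIR6747, MIR6804, MIR6728 and MIR6854) cover the 3′ end of the hairpin, and those on plus-strand ones cover the 5′ end. All of these hairpins except MIR1244-2 end in the letters CAG. They lie in the spans of the protein-coding genes TRIM28, ZYX, DTWD2, EEF1G, PPP6R1, ENO1 and TBC1D2, in the order of their hairpins above. The share of C under the peak ran from 8% in MIR6892 to 52% in MIR6804, so capitals rich and poor in C are both present. The score went from 192 in the control list to 250.3 in the knockdown list at MIR6892 (chr7:143382686-143382710, plus strand). It went from 44.1 to 90.1 at MIR6807 (chr19:58550285-58550309, plus strand) and from 16.5 to 35.02 at MIR6747 (chr11:62567011-62567035, minus strand). The knockdown score was also the higher at MIR6804 (11.7 and 17.2), MIR6854 (12.6 and 21.6) and MIR1244-2 (12.4 and 19.7), and it was the lower at MIR6728 (18.4 and 14.6). The 3 copies MIR1184-1, MIR1184-2 and MIR1184-3 on chromosome X have the same 99 bases, each covered from end to end by an identical peak, with scores of 26.8 and 18.0, 35.5 and 29.2, and 42.9 and 51.5. How reads were divided among such copies is unknown, so these 3 values may not be independent.

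The published ac4C motif is a run of CXX triplets, searched here as CNNCNNCNNCNN, with each N any base. It occurred on the RNA strand in 14 of the 20 same-strand hairpins (70%), and in 382 of the 1560 hairpins of the whole table (24.5%). On either strand the counts were 16 (80%) and 682 (43.7%). The 20 hairpins had a median length of 69 bases and 27.6% C, against 80 bases and 24.3% C in the table. The 20 include the 3 copies of MIR1184, 2 hairpins with only 5 and 8 bases under the peak, and 6 whose peaks scored under 2 in both lists. The search covered whole hairpins, so a match can lie outside the bases under the peak. Hairpins under other peaks were not searched as a group, so the share cannot be tied to identical ends. A match is a description of letters and not an acetylation site.

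An identical peak of 100 bp lay in the span of RPL27A, a protein of the large ribosomal subunit (chr11:8683188-8683287, plus strand, RefSeq GRCh38.p14). Exons were not used, so which of its bases belong to the mature mRNA is unknown. The peak also lies in the span of TRIM66, and it scored 13.3 in the control list versus 18.7 in the knockdown list. It is printed 5′ to 3′ in lower case as DNA.
RPL27A: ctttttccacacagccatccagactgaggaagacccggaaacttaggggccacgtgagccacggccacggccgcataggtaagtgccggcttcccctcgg

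This stretch held 34% C, against 22.7% in the 300 bp window that contains it, which is the promoter window of the neighbouring gene TRIM66. Identical peaks up to 300 bp were also looked up in RefSeq promoter windows (250 bases before to 50 after the start of any gene on either strand). Chromosome 8 was left out. Of the 12 that lay wholly inside a window, 9 held a higher share of C than their window, with a median of 35.1% against 33.2%. A pair of the 12 shared a window, and peaks outside the identical set were not compared. The range over the 12 was wide, from 14% to 52% C.

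The widths of identical peaks spread over a far larger range than those of most other peaks. The median was 1238 bp, with quartiles at 119 and 17703 bp and a range from 25 to 767776 bp, against medians of 150 bp for the other control peaks and 125 bp for the other knockdown peaks. Of the 5609 peaks, 2702 (48.2%) were up to 1000 bp wide, called narrow here, 1238 (22.1%) were wider than that up to 10000 bp, and 1669 (29.8%) were over 10000 bp. A span can hold introns, so a width is not a length of RNA.

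**Figure D1:**
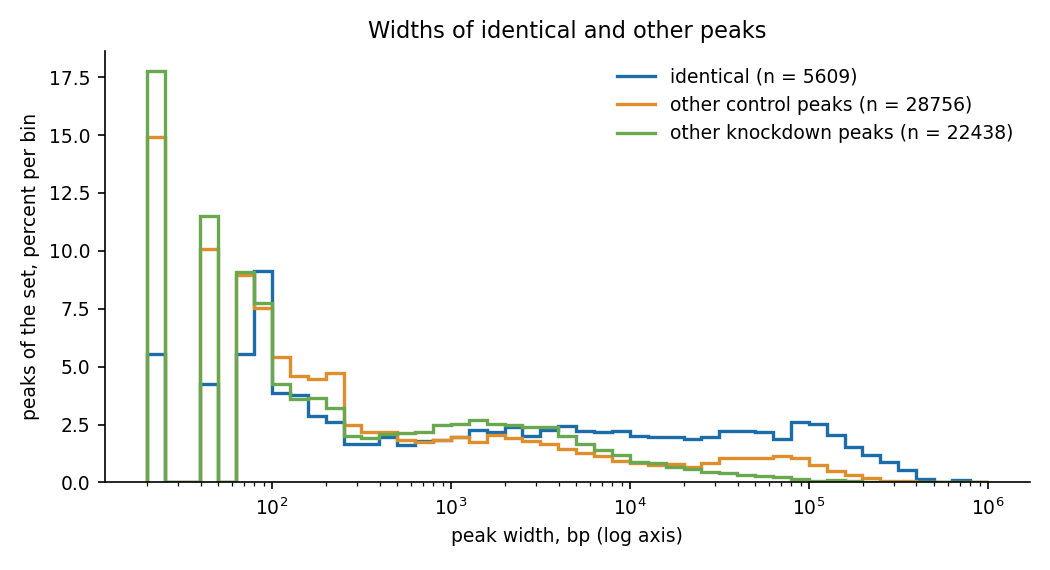
Widths of the 5609 identical peaks, the 28756 other control peaks and the 22438 other knockdown peaks, as percent of each set per bin on a log axis in bp. The identical peaks have fewer peaks at 25 and 50 bp, a high point just below 100 bp and a long shoulder beyond 10000 bp that the other sets lack or have lower.

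A grid of 25 bp underlies the narrow members. Of identical peaks up to 100 bp, 97.3% (1338 of 1375) had a width that was a multiple of 25 bp, and the share was 67.0% above that up to 300 bp and 11.4% above 300 and up to 1000 bp. Over 1000 bp it was 3.58%. A width of 100 bp was the most frequent among the members, with 494 peaks, ahead of 311 at 25 bp, 298 at 75 bp and 235 at 50 bp. In the control list as a whole 25 bp was the most frequent width, with 4598 peaks, against 2614 at 100 bp.

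The peaks just outside the rule were those whose overlapping partner had other ends. Pairing each peak with the partner that shares the largest part of the union, on the same strand and with at least 1 bp in common, gave 14633 pairs, of which 5609 (38.3%) had the same ends and 9024 did not. Of those 9024, 5826 had 1 end in common, and in 2159 pairs the other end had moved by a single step of 25 bp. Where an end of a narrow partner had moved, the distance was a multiple of 25 bp in 90.7% of cases at the 5′ end and 90.5% at the 3′ end, with a median of 50 bp. The knockdown end lay further out in 51.4% and 51.3% of these, so the moved ends showed little direction. Narrow pairs 1 step apart had median scores of 12.3 in the control list versus 12.6 in the knockdown list, and narrow identical pairs of 14.5 and 15.1.

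Strong narrow peaks were more often identical than weak ones. The deposited score has no stated scale, and most scores lie above a lower edge at 10. Where the lower score of a narrow pair lay between 10 and 12, 20.7% of pairs (990 of 4772) had identical ends. The share was 33.1% (739 of 2230) from 12 to 15, 58.5% (443 of 757) from 15 to 20, 85.2% (404 of 474) from 20 to 50 and 98.8% (79 of 80) from 50 up. The intervals of neighbouring classes did not overlap, and those of the 2 highest were 81.7 to 88.2% and 93.3 to 99.8%. Scores were correspondingly higher among all members, with medians of 15.2 and 15.3, than among the remaining peaks, with 11.9 in the control list versus 12.1 in the knockdown list.

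**Figure D2:**
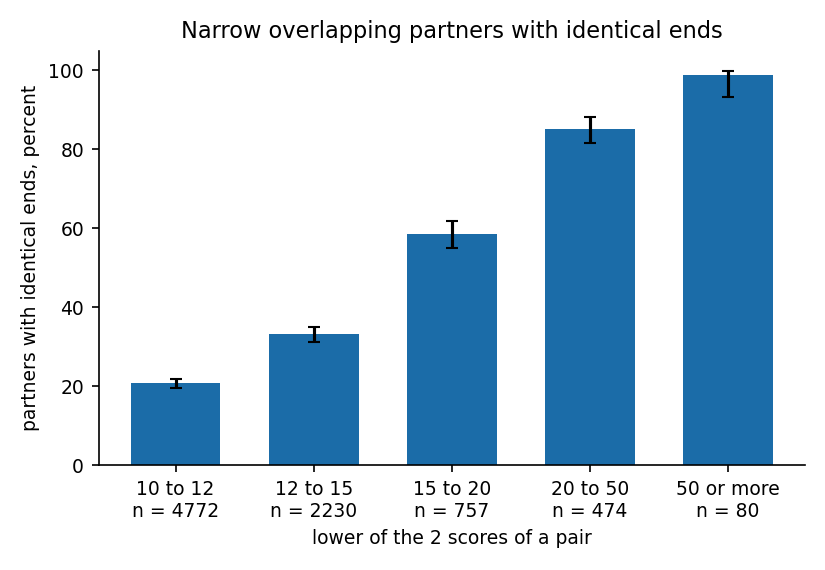
Percent of narrow overlapping partners with identical ends (bars, axis from 0) by the lower of the 2 scores of a pair, with 95% Wilson intervals that cover counting error only. The share rises in every step, from 20.7% to 98.8%.

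Over all members with finite scores the lists were close to balanced. The knockdown score was higher in 2740 of 5538 pairs (49.5%), against a background of 51.6% of all overlapping partners, lower in 2417, and equal in 381, all of them listed at 0 in both. Among the 4861 pairs with scores of at least 10 in both lists, the knockdown score was at least 1.5-fold higher in 838 (17.2%, background 13.9%) and at least 1.5-fold lower in 679 (14.0%, background 10.8%). Either way, 1517 pairs (31.2%) moved past 1.5-fold, against a background of 24.8%. The score of a peak in one list went with its score in the other more closely among identical peaks (Spearman correlation 0.58 across 4861 peaks) than among partners with other ends (0.13), a description across peaks that are not independent replicates. The partners with other ends lay closer to the lower edge at 10, with medians of 12.4 and 12.6 against 15.2 and 15.3. How far their narrower range of scores lowers the correlation was not tested.

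By score, the narrow and the very wide members differed in direction. Of narrow identical pairs 56.6% scored higher in the knockdown list, with a median difference of 0.47 score units. With scores of at least 10 in both lists, 382 (14.4%) were at least 1.5-fold up and 216 (8.14%) at least 1.5-fold down. Among narrow partners with other ends 52.9% scored higher, 10.1% were at least 1.5-fold up and 7.49% at least 1.5-fold down. Of the 1625 identical pairs over 10000 bp with finite scores, 533 (32.8%) scored higher, 749 (46.1%) lower and 343 were 0 in both. Thus 41.6% of the unequal pairs were higher. With scores of at least 10 in both lists the median difference was -2.31, with 18.7% at least 1.5-fold up and 30.6% at least 1.5-fold down. Partners of that width with other ends had 17.5% and 18.6%, of only 177 pairs. The knockdown list as a whole has slightly higher scores, with an upper quartile of 15.9 against 15.1. As percentile ranks within each list, 49.3% (47.4 to 51.2) of narrow identical peaks stood higher in the knockdown list, against 49.8% (48.5 to 51.1) of narrow partners with other ends. Leaving out pairs at 0 in both lists, which tie by score but not by rank, 34.8% (32.2 to 37.4) of identical peaks over 10000 bp stood higher, against 46.0% (41.7 to 50.5) of partners of that width with other ends. The lists differ in length, so ranks show no change between arms and are given here and below only to show where a split by score depends on the scale.

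**Figure D3:**
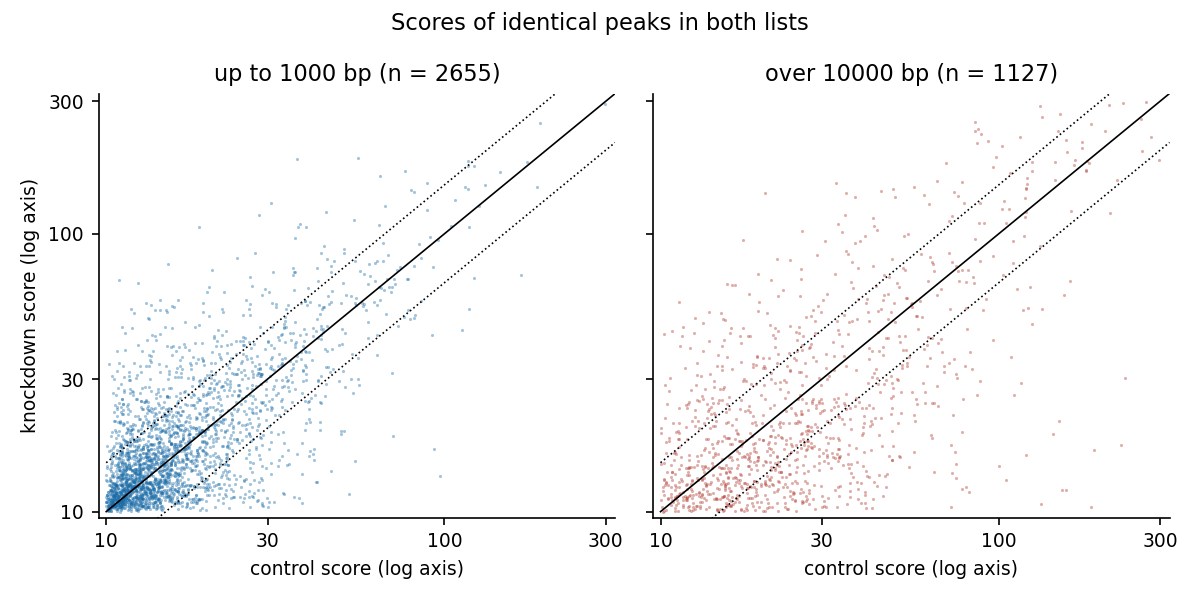
Knockdown score against control score on log axes for identical peaks with scores of at least 10 in both lists, up to 1000 bp (left, 2655 peaks) and over 10000 bp (right, 1127 peaks). The solid line marks equal scores and the dotted lines 1.5-fold; narrow peaks gather near the solid line at low scores, and wide peaks scatter further below it.

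The wide members were the larger part of all wide peaks that overlapped between the lists. Of peaks over 10000 bp, 34.3% in the control list versus 59.8% in the knockdown list were identical, and among those with any overlapping partner 82.9% and 79.1%. Many of them contained a pseudogene or small RNA gene shorter than 5000 bp. This held for 63.7% of the 369 wide members with a control score of 0, for 80.5% of the 128 with scores above 0 and under 10, for 23.9% of those from 10 to 20 and for 54.3% of the 116 with scores of 100 or more. For other control peaks of the same classes the shares were 44.9%, 54.8%, 9.92% and 15.2%, the last of only 33 peaks. The members had the higher share in every score class of both lists, but the size of the gap varied. It was small for control scores from 50 to 100 (32.8% against 29.7%). By knockdown score it was also small at 0 (63.9% against 58.7% of other knockdown peaks) and from 10 to 20 (19.3% against 14.3%). By median the members were also wider in every class, such as 80771 bp against 69928 bp at a control score of 0. At a knockdown score of 0 the medians were 83698 and 32883 bp. Whether the shares differ between peaks of like width was not tested. On genes with a stated strand, 84.9% of the wide members in 1 protein-coding gene lay on the gene's strand (225 of 265), against 97.0% of the narrow ones (1591 of 1640) and 94.2% of other wide control peaks.

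Among the widest members in a single protein-coding gene were peaks in long neuronal genes. ROBO2, an axon guidance receptor, had a peak of 373518 bp that scored 109 in the control list versus 36.0 in the knockdown list. PTPRD, a receptor tyrosine phosphatase of synapses, had peaks of 307197 bp (55.3 and 26.9) and 271405 bp (73.0 and 22.3). These 3 peaks scored lower in the knockdown list, and a peak of 297027 bp in RBFOX1, a splicing factor of neurons, was listed at 0 in both.

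Scores at the extremes were concentrated in the identical set. Of peaks listed with an infinite score, 57 of 67 in the control list and 57 of 60 in the knockdown list were identical ones, and 43 pairs were infinite in both. Of peaks listed at 0, 417 of 907 and 421 of 592 were identical ones, with a median width of 72436 bp where both were 0. Most of these members, 369 and 371, were over 10000 bp. At that width 34.3% of all control peaks and 59.8% of all knockdown peaks were identical, so width and score are not separated here. Only 4 of the 71 pairs with an infinite score in either list were narrow. They were peaks of 75 bp on the plus strand and 125 bp on the minus strand of the VIM span (vimentin, an intermediate filament), infinite in both lists, a 100 bp peak of GAPDH that was infinite in the control list versus 280.0 in the knockdown list, and a 100 bp peak of GNAS that was 270.4 and infinite.

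Peaks on small structured RNAs were mostly identical. Of narrow peaks in a single small RNA gene, 49 of 55 in each list (89.1%) were identical. The share was 10.8% of narrow control peaks and 13.5% of narrow knockdown peaks in a single protein-coding gene. The 49 peaks also stood high in score, with median percentile ranks of 89.0 and 87.2. Narrow pairs of high score were often identical whatever the gene, with 58.5% from 15 to 20 and 85.2% from 20 to 50. Whether small RNAs exceed other peaks of like score was not tested. These RNAs work without being translated, in the ribosome, the spliceosome, RNA processing and transcription control. All 16 narrow peaks on ribosomal RNA genes were identical, each on a 5S gene, of which the annotation has 17, and each was 119 bp wide. Their scores ran from 13.9 to 19.7 in the control list (median 18.9) and from 15.5 to 21.5 in the knockdown list (median 19.1), 10 higher and 6 lower, so the groups overlapped nearly in full. The 5S genes are near-identical repeats, and their values may not be independent.

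RNU2-1, the U2 small nuclear RNA that pairs with the intron branch site, and 12 annotated neighbours each had an identical peak of 150 bp. The control scores ran from 21.7 to 38.6 (median 30.3) and the knockdown scores from 33.7 to 61.8 (median 41.3), higher in all 13, with overlapping ranges. How reads were divided among these near-identical copies is unknown, so the 13 values may not be independent. The 7 U1 genes, whose RNA recognises the 5′ splice site, had medians of 18.97 and 19.8, with 4 higher and 3 lower. The 3 U5 genes, whose RNA aligns exons in the spliceosome, scored 15.6 and 16.3 (RNU5E-1), 21.04 and 31.4 (RNU5A-1) and 27.3 and 31.2 (RNU5B-1), all higher in the knockdown list. Over all 49 peaks the knockdown score was higher in 33, but by percentile rank in 19, so the direction of the group changed with the scale.

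Of the remaining small RNAs, SNORD13, the guide of NAT10 on 18S ribosomal RNA, scored 49.6 in the control list versus 56.3 in the knockdown list. SNORD3A, the U3 RNA of ribosome processing, scored 169 and 71.0, and SNORD3B-1 scored 58.7 and 53.0. RN7SK, which holds the elongation factor P-TEFb inactive, scored 31.7 and 22.4, and RN7SL3, an RNA of the signal recognition particle, 14.5 and 12.9. The Y RNAs went both ways, with RNY4 at 28.5 and 46.4, RNY3 at 92.3 and 76.02 and RNY1 at 16.3 and 16.7. RPPH1, the RNA of ribonuclease P, had peaks at 26.9 and 23.4 and at 14.8 and 13.4. Among these, SNORD3A had the widest gap and RNY1 the smallest.

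**Figure D4:**
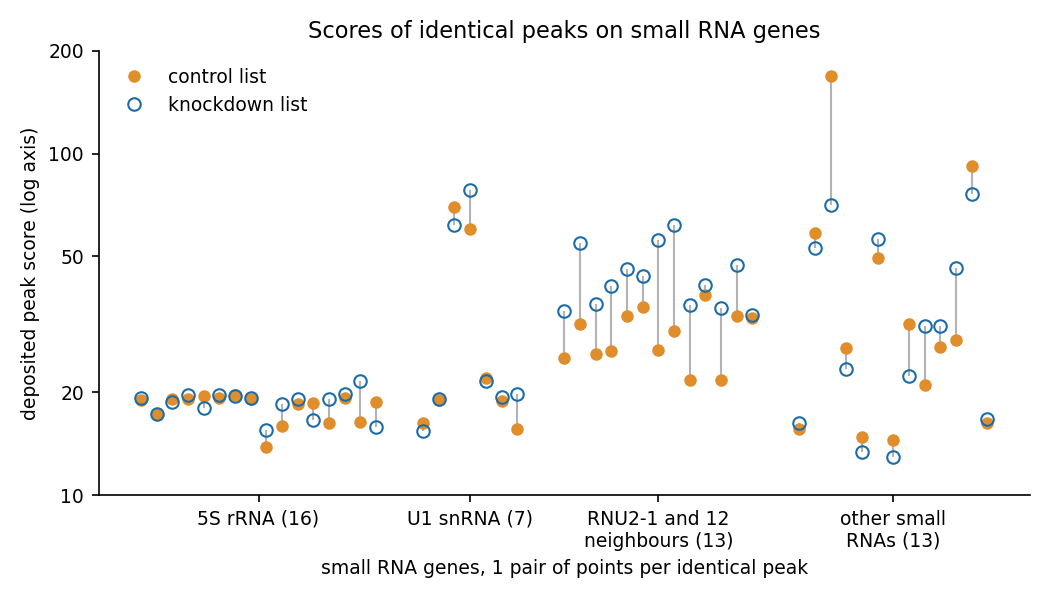
Deposited scores (log axis) of the 49 identical peaks on small RNA genes in the control list (filled points) and the knockdown list (open points), with a line joining each pair. The 16 pairs on 5S genes stay between 13.9 and 21.5, and all 13 pairs of RNU2-1 and its neighbours have the open point above the filled one.

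Identical peaks also coincided more often with gene ends. At least 1 peak end fell exactly on an end of an annotated gene in 112 members (2.00%), against 0.49% of other control peaks and 0.36% of other knockdown peaks. In 16 members the peak was the whole gene, against 1 in each of the other sets. They were RNU1-1, RNU1-3, RNVU1-18, RNVU1-7, RNY1, RNY4, the 3 MIR1184 genes, and the pseudogenes RNA5SP302, RNA5SP202, RNA5SP243, RNU1-28P, MTCO1P3, MTCYBP18 and MTND3P25.

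Most members lay on genes, and most narrow ones in a single protein-coding gene. Exactly 1 RefSeq gene span was overlapped by 3559 members, more than 1 by 1942 and none by 108. A single protein-coding gene held 3061 of them, in 2020 genes, which are 38.4% of the 5256 genes with a peak in both lists. Of these genes 1422 had 1 identical peak, 355 had 2, 136 had 3 and 107 had 4 or more. In 209 genes every peak of both lists was identical, and 180 of these had a single peak. Only 4 had 3 or more, with 4 of 4 in COTL1, an actin-binding protein, and 3 of 3 in CRTAP, HSPA1L and PTOV1. Over chromosomes, the share of narrow pairs with identical ends ran from 24.1% on chromosome 22 to 37.7% on chromosome 20.

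Within protein-coding gene spans, narrow identical peaks lay in the first 10% more often than the rest. Of 1977 such peaks, 14.5% (13.03 to 16.14) had their centre in the first 10% of the span, against 6.35% of 16370 other control peaks and 8.24% of 12642 other knockdown peaks. The last 10% held 20.0% (18.3 to 21.9), against 31.88% and 22.96%. With scores of at least 20 in both lists it held 14.6% of narrow members. Members as a whole scored higher than the rest, and position was not compared between peaks of like score. The span includes introns and position follows the peak's strand, so a slice of 10% is not a part of the mature mRNA. The knockdown score was higher in 60.3% of the 287 peaks of the first 10%, in 65.03% of those in the sixth such slice, and in 50.3% to 56.7% in the others.

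**Figure D5:**
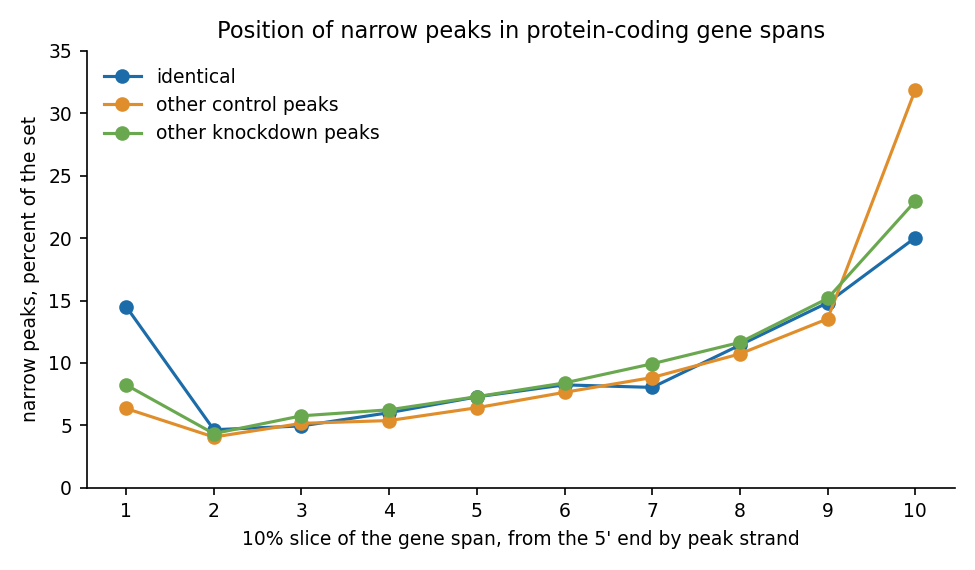
Percent of narrow peaks in a single protein-coding gene in successive slices of 10% of the gene span, for 1977 identical peaks, 16370 other control peaks and 12642 other knockdown peaks. Identical peaks have 14.5% in the first slice and 20.0% in the last, and the other control peaks 6.35% and 31.9%.

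The identical peak with the highest finite control score in a single protein-coding gene was one of 125 bp in GAPDH, the glycolytic dehydrogenase, at 299 in the control list versus 294 in the knockdown list. ACTB, cytoplasmic actin, had one of 275 bp at 176 and 182. These 2 differed little between the lists, and both genes are abundantly expressed in most cells. The other high peaks were from 6008 to 53169 bp wide. BRF1, a subunit of the RNA polymerase III factor TFIIIB, scored 283 and 222, ALG9, a mannosyltransferase of N-glycan assembly, 266 and 199, and RPH3AL, an exocytosis protein, 160 and 197. On the strand opposite to the gene lay a peak of 38231 bp that overlaps TUBA1A and runs well beyond it (alpha-tubulin, 273 and 298), and peaks in the spans of XPC (a sensor of DNA damage, 226 and 15.1), U2AF2 (the large U2AF splicing subunit, 214 and 118) and DYNC1H1 (the dynein heavy chain, 163 and 179.6). The largest drop of these was in XPC, and the peak of CCSER1 likewise went from 153 to 11.9.

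Among narrow identical peaks with scores of at least 10 in both lists, the 10 largest increases lay in 10 genes. MACF1, a crosslinker of actin and microtubules, went from 36.6 to 186 (chr1:39458363-39458512). ARPC2, a subunit of the Arp2/3 actin nucleator, went from 55.4 to 188, and VIM from 39.1 to 106. SPDL1, a dynein adaptor at kinetochores, went from 18.9 to 106. GNAS, the stimulatory G protein alpha subunit, went from 64.6 to 162, and SMAD4, the common SMAD of TGF-beta signalling, from 44.8 to 119.8. The others were AMY2A (pancreatic amylase, 76.3 to 168), SND1 (36.9 to 106), RPLP1 (a ribosomal stalk protein, 117 to 183) and SRRM2 (a spliceosome protein of nuclear speckles, 79.7 to 144). Of these 10, RPLP1 had the highest control score and SPDL1 the lowest.

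The 10 largest decreases lay in 9 genes. ZNF791, a zinc finger protein, went from 93.0 to 16.9, and TGFBI, a matrix protein induced by TGF-beta, from 113 to 44.9. CANX, the chaperone calnexin of the endoplasmic reticulum, had a pair of them, from 70.3 to 18.8 and from 52.4 to 11.5. PLK2, a polo-like kinase, went from 91.9 to 43.3, VAPA, a membrane contact protein, from 54.3 to 15.2, and CNOT3, a subunit of the CCR4-NOT deadenylase, from 46.1 to 14.0. EIF5, the GTPase activator of translation initiation, went from 81.2 to 49.6, CPSF6, a 3′ processing factor, from 81.9 to 50.9, and S100A8, a calcium-binding protein, from 50.4 to 19.5.

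Among the genes with the most identical peaks, DYNC1H1 had 13, out of 32 control and 36 knockdown peaks, with control scores from 10.7 to 163 (median 17.9) and knockdown scores from 11.6 to 179.6 (median 22.5), higher in 10. TRIO, a guanine nucleotide exchange factor for small GTPases, had 11 of 23 and 26, with medians of 14.6 and 20.5 and 6 higher. SEPTIN9 had 10 of 23 and 21, with medians of 14.9 and 20.3 and 8 higher. ACTN1, an actin crosslinker, had 9 of 12 in both lists, with medians of 18.5 and 21.2 but only 4 higher. In ACTN1 the wide peaks in the middle of the gene scored lower in the knockdown list, such as one of 8823 bp at 42.6 and 21.2, while a 100 bp peak near the 3′ end went from 43.2 to 85.5.

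NAT10 itself had 5 peaks in each list, of which 1 was identical, a peak of 904 bp (chr11:34132126-34133029, plus strand) at 14.0 in the control list versus 25.7 in the knockdown list. The sources used here do not say how a score sets immunoprecipitate against input, and it does not measure how much NAT10 RNA the cells held. CHAF1A, the large subunit of the histone chaperone CAF-1 and the gene that the study assayed by RT-qPCR, had 11 control and 4 knockdown peaks. Only 1 of them was identical, of 608 bp (chr19:4442339-4442946, plus strand), at 13.9 and 12.9.

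Genes of protein synthesis were rich in identical peaks. Narrow pairs of high score were often identical whatever the gene. Whether these or the other gene lists below exceed genes with peaks of like score was not tested. Among genes of cytosolic ribosomal proteins, 35 of the 51 with peaks in both lists had an identical one, against 38.4% of all protein-coding genes, and 53.7% of their overlapping pairs were identical, against 30.7%. The knockdown score was higher in 34 pairs and lower in 24. By percentile rank the split was 29 and 29, so no direction held on both scales. Of the 57 pairs with scores of at least 10 in both lists, 17 were at least 1.5-fold up and 5 at least 1.5-fold down. The shares over all overlapping partners were 13.9% and 10.8%, and over all identical peaks 17.2% and 14.0%. RPS2 had a peak at 27.6 and 85.1 beside one at 24.5 and 26.04, and RPL7A one at 20.6 and 74.3. RPLP0, the base of the ribosomal stalk, had 3 peaks that were all higher in the knockdown list, at 17.8 and 33.6, 40.2 and 56.7, and 25.8 and 57.7. RPL13 went the other way in all 3 of its peaks, at 12.6 and 10.9, 33.5 and 17.7, and 25.98 and 13.1.

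Translation factors had an identical peak in 22 of 34 genes, against 38.4% of all protein-coding genes. Of their pairs 40.8% were identical, against 30.7%, with 28 higher and 20 lower (25 and 23 by rank). EEF1A1, which delivers aminoacyl-tRNA to the ribosome, had 4 peaks that were all higher in the knockdown list, one of them at 14.4 and 53.2. EEF2, the translocation factor, had peaks at 78.1 and 53.3 and at 68.5 and 64.4, both lower. EIF4G1, the scaffold of the cap-binding complex, had 5, from 11.9 and 53.6 in one to 29.9 and 11.2 in another, so single genes held changes in both directions.

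Glycolytic enzymes had an identical peak in 8 of 16 genes, against 38.4% of all protein-coding genes. Of their pairs 50.8% were identical, against 30.7%, with 12 higher and 18 lower in the knockdown list (10 and 20 by rank). GPI, glucose-6-phosphate isomerase, had 8 identical peaks, of which 3 were nearly level between the lists at 56.9 and 56.3, 57.8 and 55.9, and 44.9 and 46.5. LDHA, lactate dehydrogenase A, had 4, with control scores from 10.4 to 12.9 and its largest increase from 12.9 to 23.3. PFKP, a phosphofructokinase, went from 30.6 to 14.9 in a 75 bp peak. Splicing factors had identical peaks in 27 of 35 genes and cytoskeleton and adhesion genes in 28 of 33, against 38.4% of all protein-coding genes. Of their pairs 39.9% and 36.0% were identical, against 30.7%. These genes held 138 and 236 pairs, against 9967 in all 5256 genes. A gene with more pairs has more chances of an identical one. Splicing factors scored higher in 29 and lower in 26 (24 and 31 by rank), and cytoskeletal genes higher in 43 and lower in 40 (35 and 48 by rank), so both splits turned with the scale.

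Chromatin, RNA modification, replication and chaperone genes lay near the background by genes (38.4%) and below it by pairs. Identical peaks were found in 15 of 38 chromatin remodelling genes, 9 of 20 histone chaperone and CAF-1 genes, 6 of 16 RNA modification enzymes, 13 of 27 replication genes and 11 of 27 heat shock genes, with 22.9% to 25.6% of pairs identical, against 30.7% of all pairs in protein-coding genes. The histone chaperones scored higher in 3 and lower in 8 (2 and 9 by rank), such as ANP32A at 31.9 and 15.4, although a peak of SET went from 16.7 to 36.0. The RNA modification enzymes scored higher in 7 and lower in 1 (5 and 3 by rank). FBL, the rRNA 2′-O-methyltransferase, was at 28.9 and 31.2, YTHDC1, a nuclear m6A reader, at 16.1 and 25.4, and ADAR, the adenosine deaminase, at 13.1 and 21.6 and at 15.5 and 14.2. Of the long noncoding RNAs searched, MALAT1 had 2 identical peaks out of 26 control and 29 knockdown ones, at 16.4 and 12.2 and at 32.1 and 14.6, and NEAT1 had 1, at 13.2 and 10.4.

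Markers of biliary cells, the labelled origin of the line, were present among the members. Of 18 biliary marker genes 14 had peaks in both lists. Identical peaks lay in 10 of these (71.4%, against 38.4% of all protein-coding genes), among them KRT7, KRT8, KRT19, SOX9 and EGFR. The knockdown score was higher in 12 and lower in 9 (9 and 12 by rank). A gene with more overlapping pairs has more chances of an identical one. The 14 biliary genes held 49 pairs, against 9967 in the 5256 protein-coding genes with peaks in both lists. Of overlapping pairs, 44.9% were identical in biliary markers and 44.4% in neuronal ones (of only 9 pairs), against 30.7% in all protein-coding genes. This share thus did not set biliary markers apart from neuronal ones. KRT8 had 4 identical peaks, with one at 13.4 and 35.2, and SPP1 (osteopontin) had a 625 bp peak at 13.7 and 43.1. Of hepatocyte markers 2 of 8 genes had peaks in both lists and none an identical one, and of stromal markers 1 of 9 and none. Of 7 immune markers 2 had peaks in both lists, LYZ (15.1 and 21.4) and CD68 (11.6 and 11.0), with 1 narrow identical peak each. Astrocyte and oligodendrocyte markers had no gene with peaks in both lists, and of 10 neuronal markers 4 had, with narrow identical peaks in TUBB3, a tubulin also made outside neurons, and a wide one listed at 0 in both lists in SNAP25.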

How the data were processed

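The submitters' processing notes name Bowtie2 2.4.1, fastp 0.20.1 and the build hg38, without their roles. The peak caller, with its settings and any pooling of replicates, was not given in the sources used here. From this the authors deposited 1 list of peaks per arm, in which each peak has a deposited score of unstated scale. Scores were used to describe and rank peaks.

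Starts were converted to 1-based positions. Peaks were paired on chromosome, start, end and strand, and overlapping partners as reciprocal best pairs by share of the union. Genes are RefSeq spans of GRCh38.p14 overlapped on either strand. Gene strand was known for 79% of protein-coding genes, and exons were not used. Wilson intervals (95%) cover counting error only and treat peaks as independent. Depth is unknown. Pairing was tested on simulated data. Python 3.11.15, NumPy 2.4.6, pandas 2.3.3, SciPy 1.17.1 and matplotlib 3.10.9 were used.

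The members, gene lists and naming rule were chosen with earlier results of these data known. The rule names, among identical peaks in 1 protein-coding gene, the 10 highest control scores, the 10 largest rises and drops among narrow peaks, the 5 genes with most peaks, the 5 widest peaks, the up to 4 highest members of each list, NAT10 and CHAF1A, and skips genes without an official symbol. Other genes, the small RNAs and the hairpins were chosen after their values were seen. Alternatives covered score minimum, width, tolerance of ends, strand, rank and gene assignment. Some genes that the rule names are left out of the text.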

Additional observations from a re-analysis of the deposited data

How the results depend on the processing

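Of 25 alternatives to 6 results, 8 left the value within 1.5 times (counts) or inside the 95% interval of the main value. The 5609 identical peaks became 9715 with both ends within 50 bp, 1295 with scores of at least 20 in both lists and 2702 up to 1000 bp. The share scoring higher in the knockdown list, 49.5%, was 53.3% with scores of at least 10, 57.4% at 20, 56.6% up to 1000 bp, 42.6% by percentile rank and 52.4% in exactly 1 gene. By rank, pairs at 0 in both count as lower, because the control list holds more zeros; without them, chosen after seeing the data, it was 45.7%. The median score difference, 0 over all pairs, was 0.32 with scores of at least 10, 0.47 up to 1000 bp and 0.19 in exactly 1 gene. The share past 1.5-fold, 31.2%, was 52.0% at the lower fold tried and 13.9% at 2-fold. The median width, 1238 bp, was 634.5 bp with scores of at least 10 and 293 bp in exactly 1 gene, and the share in the last 10% of the span, 20.0%, was 14.6% with scores of at least 20. Sequencing depth is unknown, so its part in ends and scores was not tested. No paired analysis was possible because each arm has 1 list that does not separate the replicates.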

Other observations

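Identical peaks on the strand opposite to a protein-coding gene were a small group. Of narrow members on genes with a stated strand, 49 of 1640 lay opposite. Among other narrow peaks 238 of 13552 in the control list and 205 of 10560 in the knockdown list did so. The share on the gene's strand was 97.0% of members, against 98.2% and 98.1%. Of the 48 opposite members with finite scores 25 (52.1%) scored higher in the knockdown list, against 55.4% of narrow members on the gene's strand. EIF4B, an initiation factor that stimulates the helicase eIF4A, had an identical peak of 150 bp on the minus strand at 67.9 and 83.9 that overlapped one of 200 bp on the plus strand at 14.1 and 20.0. GAPDH had a 577 bp peak on the minus strand at 41.8 in the control list versus 12.8 in the knockdown list, where its plus-strand neighbours of 125 bp were at 67.8 and 68.7 and at 299 and 294. No source used here states whether the libraries keep strand.

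Of the members listed at 0 in both lists, 24 lay in a single protein-coding gene, in 24 different genes, among them RBFOX1, CDH18 and GRM7. Ignoring strand added only a pair of matches, for 5611 in all.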
